A study of Mus musculus with 21 samples.

Results

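Liver-only peaks at gene ends are places where estrogen receptor alpha (ERα), the nuclear receptor for estradiol, was mapped in mouse liver beside a protein-coding gene and in no fat depot of the same study. They were chosen by position and by absence from other lists: a peak of the Liver list on chromosomes 1 to 19 or X, whose summit lay no more than 1 kb from an end of a protein-coding gene, and with not even 1 bp of overlap with a peak of the 4 fat lists. The rule selected 1480 of 21411 Liver peaks (6.91%). ERα ChIP-seq, in which DNA bound by the receptor is pulled down with an antibody and sequenced, had been done on CD-1 mice aged 10 weeks: Liver with estradiol (2 libraries), vWAT with estradiol (4), scWAT with estradiol (3), BAT with estradiol (1) and vWAT with vehicle (2). Tissue names are as labelled. Each group had 1 deposited list for all its libraries, so no value per library was used, no test across animals could be run, and the read depth is unknown. All intervals are 95% intervals that cover counting error over peaks, genes or promoters. The series also names H3K27ac ChIP-seq of vWAT and RNA-seq of vWAT, neither of which was used here, and no expression data of liver were analysed.

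ERα binds DNA as a pair of molecules at the estrogen response element, and can also be brought to DNA through other factors. In rodent liver estrogen signalling is known for effects on lipid, bile acid and amino acid metabolism and on clotting proteins. Promoters of genes that most cells use tend to be rich in CpG dinucleotides, GC boxes, CCAAT boxes and ETS sites, whereas many promoters of liver-restricted genes are poor in CpG. Signal at active promoters in ChIP-seq does not by itself show that the receptor contacts DNA there.

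Promoter sequences are given for strong members and for members at liver genes. The first 4 are the promoters with the strongest Liver-only peaks among those whose summit fell in the promoter window of the nearest gene. Each runs 5′ to 3′ on the gene's strand from 250 bases before to 50 after a transcription start, from RefSeq on GRCm38.p6, the assembly of mm10. Capitals mark every match on either strand to the 12 motifs spelled out further on. Ube2n, a ubiquitin-conjugating enzyme gene, is shown at chr10:95514912-95515211 on the + strand, and Haus4, a subunit of the augmin complex of the spindle, at chr14:54554312-54554611 on the - strand, from a start inside the gene's span. Gimap9, an immune GTPase gene, is shown at chr6:48675885-48676184 (+) and Mgat1, the enzyme that opens the synthesis of complex N-glycans, at chr11:49243941-49244240 (+).
Ube2n: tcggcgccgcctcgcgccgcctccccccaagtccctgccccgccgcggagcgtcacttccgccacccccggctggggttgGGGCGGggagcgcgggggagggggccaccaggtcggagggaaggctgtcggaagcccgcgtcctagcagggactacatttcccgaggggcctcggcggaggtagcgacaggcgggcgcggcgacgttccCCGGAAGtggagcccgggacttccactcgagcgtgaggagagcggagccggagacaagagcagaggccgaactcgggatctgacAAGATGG
Haus4: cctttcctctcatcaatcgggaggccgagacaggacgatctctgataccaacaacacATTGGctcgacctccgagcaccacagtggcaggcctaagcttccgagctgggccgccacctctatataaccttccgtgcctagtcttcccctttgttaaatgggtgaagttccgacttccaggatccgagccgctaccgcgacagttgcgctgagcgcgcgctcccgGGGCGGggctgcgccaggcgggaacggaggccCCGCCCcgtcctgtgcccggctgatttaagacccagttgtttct
Gimap9: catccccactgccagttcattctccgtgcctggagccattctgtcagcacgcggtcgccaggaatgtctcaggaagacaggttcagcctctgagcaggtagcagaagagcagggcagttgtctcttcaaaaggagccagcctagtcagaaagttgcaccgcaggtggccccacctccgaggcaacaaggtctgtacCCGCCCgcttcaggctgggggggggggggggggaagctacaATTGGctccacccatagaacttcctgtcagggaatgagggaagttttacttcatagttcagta
Mgat1: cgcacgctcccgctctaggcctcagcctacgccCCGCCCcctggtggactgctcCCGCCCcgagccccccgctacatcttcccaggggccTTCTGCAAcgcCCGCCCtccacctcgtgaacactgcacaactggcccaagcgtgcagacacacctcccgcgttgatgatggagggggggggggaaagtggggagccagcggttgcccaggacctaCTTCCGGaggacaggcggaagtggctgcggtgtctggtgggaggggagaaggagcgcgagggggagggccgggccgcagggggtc

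The next 4 are the CpG-poor promoters that held a Liver-only summit among genes of the liver and metabolic lists described further on. Of the 25 genes of these lists with a Liver-only peak at an end, 5 had the summit in their promoter window. Thus the 4 shown do not stand for the 25. Gsta3, a glutathione transferase of detoxification, is shown at chr1:21240335-21240634 (+). Tdo2, which opens tryptophan breakdown, is shown at chr3:81975679-81975978 (-). Cyp2e1, a cytochrome P450 that oxidises ethanol, is shown at chr7:140763569-140763868 (+), and F9, coagulation factor IX, at chrX:59999214-59999513 (+).
Gsta3: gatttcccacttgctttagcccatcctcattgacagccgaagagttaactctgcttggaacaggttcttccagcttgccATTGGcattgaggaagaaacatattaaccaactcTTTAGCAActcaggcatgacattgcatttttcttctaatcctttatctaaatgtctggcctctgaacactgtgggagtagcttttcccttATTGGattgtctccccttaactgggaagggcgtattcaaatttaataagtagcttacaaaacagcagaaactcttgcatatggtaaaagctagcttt
Tdo2: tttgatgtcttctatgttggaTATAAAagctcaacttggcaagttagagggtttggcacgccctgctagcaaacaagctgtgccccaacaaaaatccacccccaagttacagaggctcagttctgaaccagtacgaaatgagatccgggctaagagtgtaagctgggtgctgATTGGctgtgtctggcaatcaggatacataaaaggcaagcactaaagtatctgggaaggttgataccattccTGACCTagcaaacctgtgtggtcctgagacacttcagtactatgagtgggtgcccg
Cyp2e1: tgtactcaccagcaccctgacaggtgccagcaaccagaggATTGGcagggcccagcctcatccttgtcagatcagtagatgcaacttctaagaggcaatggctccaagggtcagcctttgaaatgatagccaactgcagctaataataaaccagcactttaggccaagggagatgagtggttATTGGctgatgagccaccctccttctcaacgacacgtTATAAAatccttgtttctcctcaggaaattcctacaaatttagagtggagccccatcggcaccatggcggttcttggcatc
F9: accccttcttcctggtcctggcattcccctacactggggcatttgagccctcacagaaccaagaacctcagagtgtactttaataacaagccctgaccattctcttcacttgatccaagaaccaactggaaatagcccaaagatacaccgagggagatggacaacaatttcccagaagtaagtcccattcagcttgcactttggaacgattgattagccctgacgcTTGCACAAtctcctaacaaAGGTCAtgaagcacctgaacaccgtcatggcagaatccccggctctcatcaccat

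The first 4 windows were chosen for peak strength and the other 4 for low CpG content, so the values below describe them and compare nothing. The ratio of observed to expected CpG was 0.918 for Ube2n, 0.897 for Haus4, 0.588 for Mgat1 and 0.325 for Gimap9, and all 4 held at least 1 GC box. It was 0.302 for F9, 0.236 for Tdo2, 0.217 for Cyp2e1 and 0.160 for Gsta3, and none of these 4 held a GC box. Tdo2 and Cyp2e1 held a TATA box, and Tdo2 and F9 held a single AGGTCA arm of the estrogen response element. The enrichment of the peak, the authors' fold value over a background they do not state, was 7.89 at Ube2n, 7.76 at Haus4, 7.66 at Gimap9 and 7.61 at Mgat1, against 4.83 at Gsta3, 4.51 at Tdo2, 3.88 at Cyp2e1 and 3.39 at F9.

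Most Liver peaks at gene ends were found in fat too. Of 5387 Liver peaks at gene ends, 27.5% (26.3 to 28.7) were Liver-only, and the other 3907 overlapped a peak of at least 1 fat list. Of the Liver peaks away from gene ends, 86.2% (85.6 to 86.7) were Liver-only. Seen from the other side, 9.68% (9.22 to 10.2) of Liver-only peaks lay at gene ends, against 63.8% (62.6 to 65.0) of shared Liver peaks. Both the list and the overlap entered the rule, so these shares describe how rare the members are and carry no test. Of the shared gene-end peaks, 3111 overlapped the vWAT estradiol list and 3108 the scWAT list, with 20715 and 17971 peaks. The vWAT vehicle list, with 7400 peaks, was overlapped by 2815 and the BAT list, with 5193, by 1428. The lists differ in size, so these counts do not rank the tissues. The authors' −log10 q-value was 2 or more for 46.4% of Liver peaks, 89.9% in vWAT with estradiol and 88.0% in scWAT. It was so for 70.9% in vWAT with vehicle and 33.5% in BAT.

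The members were weaker than the shared peaks beside them and stronger than the Liver-only peaks elsewhere. The median enrichment was 4.04 (3.98 to 4.09) for members, 3.33 (3.33 to 3.33) for Liver-only peaks away from gene ends and 5.64 (5.53 to 5.77) for shared gene-end peaks. Members ranged from 2.42 to 9.66, whereas shared gene-end peaks reached 24.0. Enrichment came in steps: 155 members stood at 3.33, and 35.1% of members at their 10 most frequent values. For shared gene-end peaks that share was 10.1%. An interval of no width, as at 3.33, comes from tied values and does not show precision. The authors' −log10 q-value was 2 or more for 740 of the 1480 members, for 32.3% of Liver-only peaks away from gene ends and for 84.3% of shared gene-end peaks. By p-value no member was among the 500 strongest Liver peaks, 3 were among the 1000 strongest, and the best stood at rank 910. The median width was 302 bp for members and 452 bp for shared gene-end peaks. Of the members 46.5% had the smallest width in the list, 298 bp, as had 66.2% of Liver-only peaks away from gene ends and 14.4% of shared gene-end peaks. Strength in the Liver list and absence from the fat lists moved together, so these values, too, belong with the choice of members and are given without a test.

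**Figure D1:**
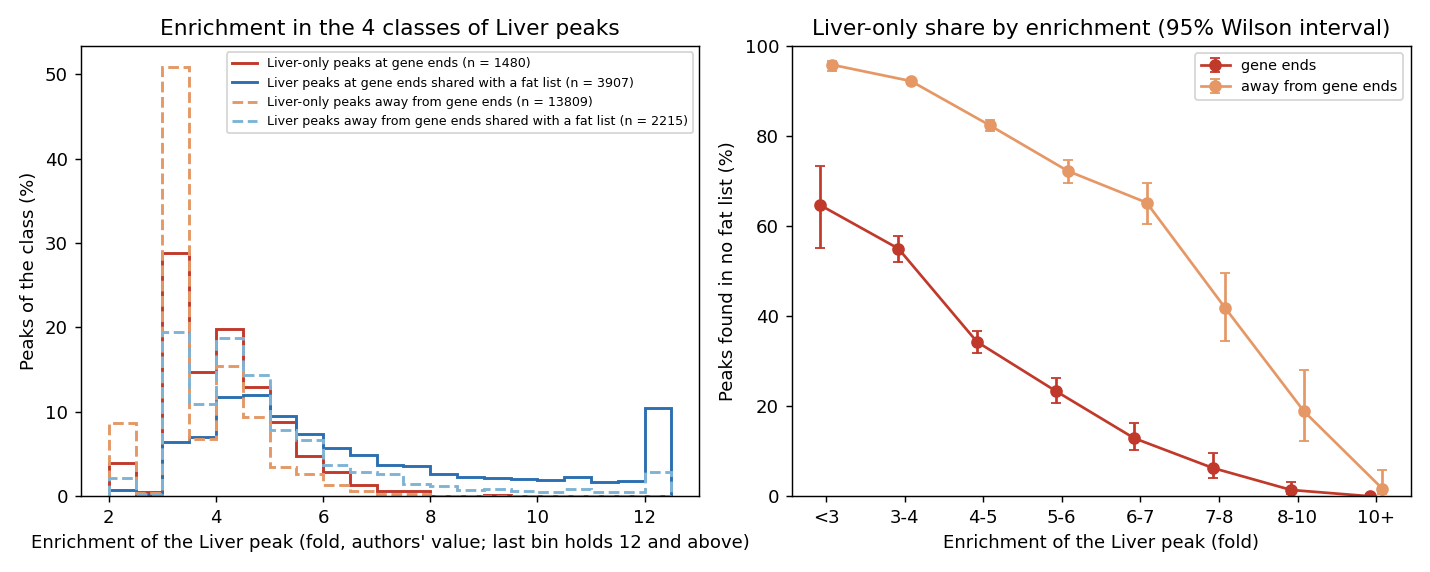
Left, the share of peaks (%) per 0.5-fold bin of enrichment in each of the 4 classes of Liver peaks, with 12-fold and above in the last bin. Right, the share of Liver peaks found in no fat list (%) per bin of enrichment, at gene ends (dark points) and away from them (light points), with 95% Wilson intervals: it was 55.0% at gene ends and 92.2% away from them at 3- to 4-fold, and 6.29% and 41.8% at 7- to 8-fold.

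The share of gene-end peaks that were Liver-only fell with strength. It was 64.7% below 3-fold, 34.3% from 4- to 5-fold, 12.9% from 6- to 7-fold and 1.39% from 8- to 10-fold. Of the 703 gene-end Liver peaks with an enrichment of 10 or more none was Liver-only; a count of 0 allows up to 3 such peaks (0.427%), and the upper Wilson bound is 0.543%. Away from gene ends the share also fell, yet in every bin below 10-fold it was higher than at gene ends, with 95.8% below 3-fold, 82.4% from 4- to 5-fold, 65.2% from 6- to 7-fold and 18.9% from 8- to 10-fold. The intervals of the 2 places did not overlap in any of these bins, as the plot of the Liver-only share by enrichment shows.

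The strongest members lay at genes of varied function. Among the 25 with the largest enrichment, 15 were nearest to a gene start, none was nearest to a known gene end, and for 10 the strand was unknown. Their enrichment was 6.97 to 9.66 and their −log10 q-value 6.78 to 14.1. The first was a peak on chromosome 8 at 33385420 to 33385830 with an enrichment of 9.66. Its summit lay 23 bp inside the span of Purg, a purine-rich element binding protein gene, and it also lay at Wrn, which encodes the DNA helicase lost in Werner syndrome. The next lay on chromosome 8 at 70233985 to 70234510 (9.36), 79 bp inside the start of Sugp2, a gene of mRNA processing, and at Armc6. The peak of Ripk2, a kinase of innate immune signalling, had an enrichment of 9.33 on chromosome 4 at 16163522 to 16164053. The next 3 members lay at Fxr2 (8.58), an RNA-binding protein gene related to Fmr1, at Lrrc8c (8.47), a subunit of the volume-regulated anion channel, and at Fbxw7 (8.0), which selects substrates for a ubiquitin ligase.

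Several of the other members of the 25 lay at genes of ubiquitin transfer, transcription and RNA handling. Besides Ube2n (7.89), Ubr4 (7.28) encodes a ubiquitin ligase and Erlin2 (7.38) a protein of endoplasmic reticulum degradation. Rpp21 (7.96) encodes a subunit of ribonuclease P, Rprd1a (7.81) a protein that binds the tail of RNA polymerase II, Ice2 (7.37) a subunit of the little elongation complex and Raly (7.12) an RNA-binding protein. Bicral (7.72) encodes a subunit of a BAF chromatin remodelling complex, and the same peak lay at Tbcc, a tubulin folding gene. Slc22a7 (7.20), an organic anion transporter of liver and kidney, was the member of the 25 whose gene is best known from hepatocytes. Its peak lay on chromosome 17 at 46438524 to 46438888, 321 bp outside the span, with the nearest fat peak 44.5 kb away. The others were Cdc42bpg (7.85), Haus4 (7.76), Gimap9 (7.66), Mgat1 (7.61), Zbtb37 (7.45), Rsu1 (7.37), Esam (7.37), an endothelial adhesion gene, Phf3 (7.02), Naa15 (7.02) and Ppp2r5a (6.97). The selection by enrichment gives no evidence that any gene group is frequent among the strongest members.

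Absence from the fat lists did not always mean that the fat lists were empty at that gene end. A fat peak began within 100 bp of 7.09% of members (5.89 to 8.52) and within 1000 bp of 24.0% (21.9 to 26.2). Among Liver-only peaks away from gene ends these shares were 0.710% (0.583 to 0.864) and 3.95% (3.64 to 4.29). For 302 members (20.4%, 18.4 to 22.5) a fat summit lay within 1 kb of the same gene end, most often in the scWAT list (193 members), then in vWAT with estradiol (154), vWAT with vehicle (88) and BAT (23). For 1178 members no fat list had one. Of the 25 strongest, 7 had such a fat summit: Ripk2, Mgat1, Zbtb37, Erlin2, Rsu1, Ubr4 and Ppp2r5a. The gap to the fat peak was 4 bp at Rsu1, 66 bp at Zbtb37 and 90 bp at Ubr4. In contrast, the nearest fat peak was 118 kb from the Fbxw7 member, 116 kb from that of Phf3 and 46.0 kb from that of Raly.

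Strand was known for 1159 members, and most of these lay at transcription starts. Of them 934 (80.6%, 78.2 to 82.8) were nearer to the start of a gene and 225 (19.4%) nearer to its end. Among shared gene-end peaks with known strand, 97.8% (97.2 to 98.2) were nearer to a start. The difference was -17.2 percentage points (-19.6 to -14.9). Turned round, 22.8% of Liver peaks nearest a start were Liver-only, against 75.8% of the 297 nearest an end, a difference of -53.0 points (-57.7 to -47.7). Members at starts had a median enrichment of 4.15 (4.06 to 4.16) and members at ends 3.33 (3.33 to 3.39). Since members near ends were weaker and weak peaks were more often Liver-only, position and strength moved together here, and their parts were not tested.

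The members also sat less tightly on the start. Among summits nearest a start, the median distance was 193 bp (179 to 212) for members and 115 bp (110 to 120) for shared peaks, and 50.7% against 72.1% lay within 200 bp. Over starts, ends and genes of unknown strand together, the medians were 232 bp (216 to 254) and 118 bp (113 to 123). Among summits nearest a start, 15.5% of members and 24.3% of shared summits fell in the 100 bp just upstream. Upstream of the start lay 46.6% of members and 53.5% of shared summits, a difference of -6.93 points (-10.5 to -3.28). Around gene ends, members showed no single maximum: the 200-bp bins held from 5.78% to 13.8% of the 225 summits. A member less often lay at the ends of 2 or more genes (13.6%) than a shared gene-end peak did (22.3%), a difference of -8.69 points (-10.8 to -6.45).

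**Figure D2:**
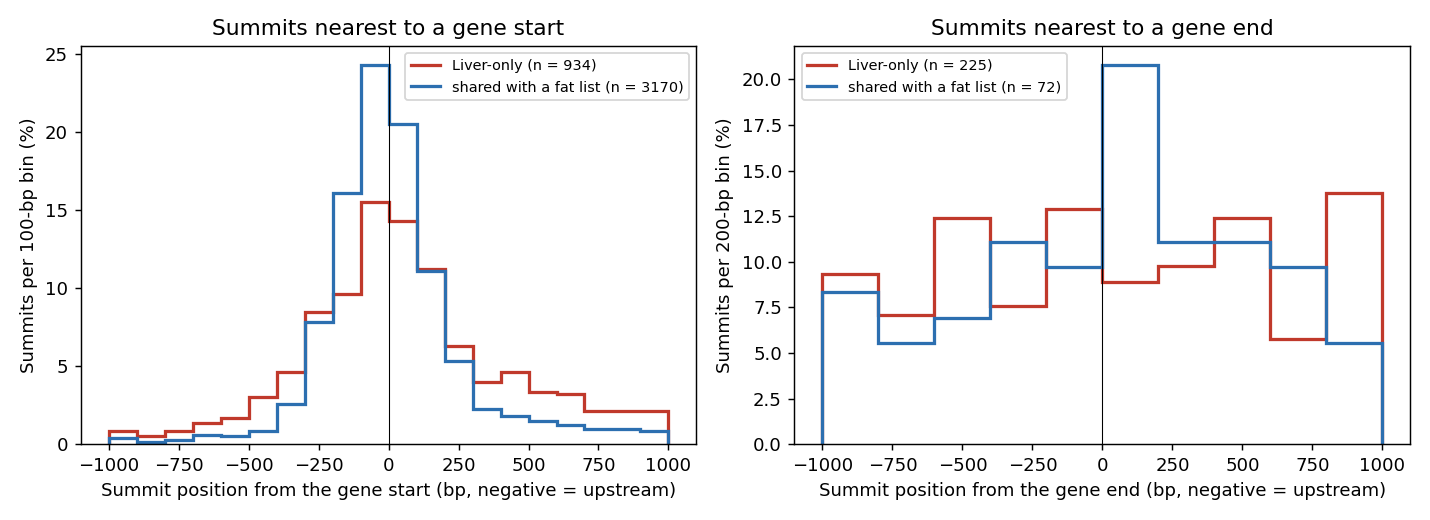
Position of summits (bp, negative upstream) relative to the nearest gene start, as the share per 100-bp bin (%, left), and to the nearest gene end, per 200-bp bin (%, right), for Liver-only peaks (red) and shared Liver peaks (blue). Both classes peak in the 100 bp before the start, with 15.5% of Liver-only and 24.3% of shared summits, and 934 Liver-only summits lie nearest a start against 225 nearest an end.

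The strongest member at a known gene end belonged to Hmgcs1, which encodes the cytosolic synthase of the cholesterol pathway. It lay on chromosome 13 at 119707916 to 119708300 with an enrichment of 6.53, 195 bp from the end, and the gene also had a shared Liver peak of 8.20. Next came the ends of Spcs2 (6.35), a signal peptidase subunit, and Son (6.09), a splicing factor gene. The end of Gtf2h4 (6.09), a subunit of the general transcription factor TFIIH, also lies at Vars2, and the end of Coa3 (5.54) at Wnk4, so a summit there may stand as near to a neighbouring gene as to the one named.

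Values on each side show what the limit of 1 kb does. Just inside lay peaks at Zfp612 (999 bp, enrichment 3.31), G6pc2 (994 bp, 5.05) and Trir (994 bp, 3.60). Just outside lay Liver-only peaks at Chrd (1001 bp, 5.11) and Ckb (1002 bp, 4.94). The values on the 2 sides overlap.

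At the level of genes, 1659 of 21631 protein-coding genes had a Liver-only peak at an end (7.67%), 4617 had a shared Liver peak there (21.3%) and 149 had both. The members' genes were set against 27 gene lists of 555 distinct genes. The 8 lists of liver and metabolic function held 146 genes, of which 25 (17.1%, 11.9 to 24.1) had a Liver-only peak at an end, from 24 distinct peaks, and 27 (18.5%, 13.0 to 25.6) had a shared one. The 9 housekeeping lists held 244 genes, of which 15 (6.15%, 3.76 to 9.89) had a Liver-only peak and 178 (73.0%, 67.1 to 78.1) a shared one. Few genes had both kinds of peak, so the genes without a shared peak were also counted. Among these, 8.88% of all protein-coding genes had a Liver-only peak, against 24 of 119 in the liver and metabolic lists (20.2%, 13.9 to 28.3) and 12 of 66 in the housekeeping lists (18.2%, 10.7 to 29.1). Sharing with fat entered the rule, and leaving out genes with a shared peak removed 178 of the 244 housekeeping genes, so these shares describe the remaining genes and set no group apart.

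**Figure D3:**
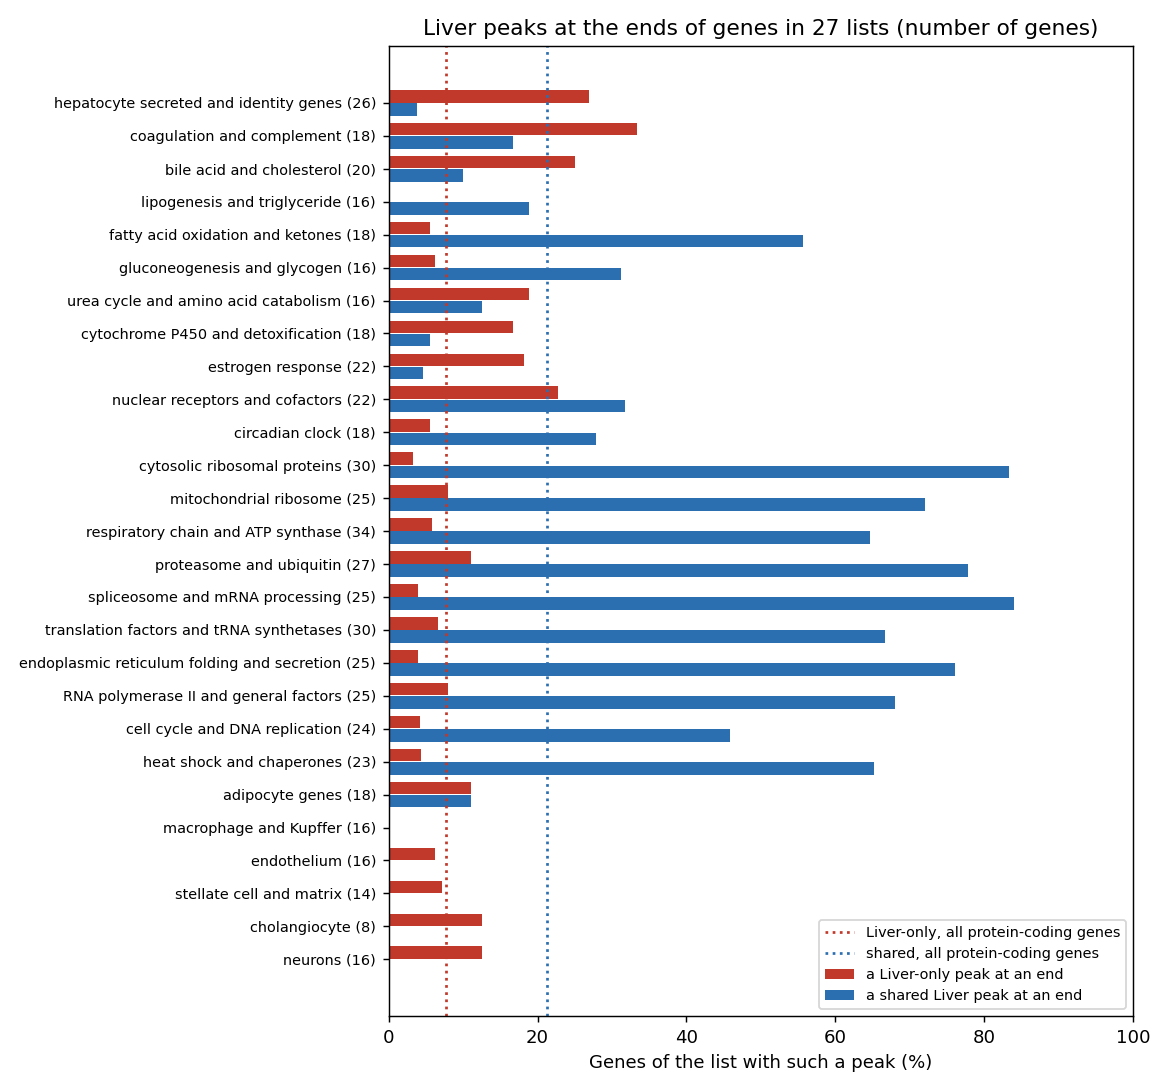
Share of genes (%) in each of 27 lists with a Liver-only peak (red bars) and with a shared Liver peak (blue bars) at an end, and the shares over all protein-coding genes (dotted lines, 7.67% and 21.3%). The number of genes is in parentheses; red bars exceed blue bars in the hepatocyte, coagulation, bile acid, urea cycle, cytochrome P450 and estrogen response lists and, at 1 or 2 genes each, in the endothelium, stellate cell, cholangiocyte and neuron lists, and blue bars exceed red ones in every housekeeping list.

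Genes of secreted liver proteins and liver identity had 7 members' genes among 26 (26.9%, 13.7 to 46.1) and 1 gene with a shared peak. The strongest was Serpina1c, which encodes an alpha-1-antitrypsin, with an enrichment of 4.56 on chromosome 12 at 103904094 to 103904524. It was followed by Nr5a2 (3.94), a nuclear receptor of bile acid synthesis, Fga (3.63), the fibrinogen alpha chain, and Cebpa (3.55), a transcription factor of hepatocytes and adipocytes. Ahsg (3.53), which encodes fetuin-A, Nr1i3 (3.38), the xenobiotic receptor CAR, and Apoa1 (3.17), the main protein of high-density lipoprotein, completed the list. Of the 7 peaks 2, at Serpina1c and Ahsg, reached a −log10 q-value of 2.

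In the coagulation and complement list 6 of 18 genes (33.3%, 16.3 to 56.3) had a Liver-only peak and 3 had a shared one. C4b, a complement component, had an enrichment of 4.91 on chromosome 17 at 34728142 to 34728514, 118 bp from the gene end. F7 and F10, which encode coagulation factors, are neighbours and shared 1 peak of 4.47 on chromosome 8 at 13036566 to 13036941. F11 followed with 4.42, and F9 and Masp1, a protease that activates complement, both had 3.39. The nearest fat peak lay 345 kb from the F9 peak and 89.3 kb from that of F11.

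In the bile acid and cholesterol list 5 of 20 genes (an interval of 11.2% to 46.9%) had a Liver-only peak and 2 had a shared one. Besides Hmgcs1, these included Abcg5 (4.75), which with its neighbour Abcg8 exports sterols into bile. Nr1h4 (4.03) encodes the bile acid receptor FXR, and Nr0b2 (3.95) the repressor SHP that FXR induces. In the urea cycle and amino acid list 3 of 16 genes had one (18.8%, 6.59 to 43.0): Tdo2 (4.51), Ass1 (4.13), an enzyme of the urea cycle, and Gpt (3.37), alanine transaminase. In the cytochrome P450 and detoxification list 3 of 18 had one (16.7%, 5.84 to 39.2): Gsta3 (4.83), Cyp2e1 (3.88) and Nr1i3. The intervals of both lists include the 7.67% over all genes.

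The other 3 metabolic lists had fewer such genes, and the differences between lists were not tested. None of 16 lipogenesis and triglyceride genes had a Liver-only peak at an end, which leaves an interval of up to 19.4%. Of 18 genes of fatty acid oxidation and ketone formation 1 had one (0.988% to 25.8%), Acaa2 (4.50), while 10 had a shared peak, and of 16 genes of gluconeogenesis and glycogen 1 had one (1.11% to 28.3%), Slc2a2 (3.53), the glucose transporter of hepatocytes, while 5 had a shared peak. Without these 3 lists, a choice made after the counts were seen, the other 5 had 23 of 96 genes with a Liver-only peak (24.0%). A shared one was at 9 genes (9.38%). Over all protein-coding genes these shares were 7.67% and 21.3%. The lists left out had the fewest genes with a Liver-only peak, so the higher share follows from the choice and supports nothing. A fat summit lay at the same gene end for 1 of the 25 liver and metabolic genes, Acaa2, and for none of those 23. It did so for 2 of the 15 housekeeping genes with a Liver-only peak and for 20.4% of all members.

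Of 22 estrogen response genes 4 had a Liver-only peak (18.2%, 7.31 to 38.5) and 1 had a shared one. The interval includes the 7.67% over all genes, and 3 of the 4 reached a −log10 q-value of 2. Cxcl12 (4.41), a chemokine gene, had its peak on chromosome 6 at 117168239 to 117168833. Socs2 (4.29), which restrains growth hormone signalling, Rara (4.23), a retinoic acid receptor, and Xbp1 (4.01), a factor of the unfolded protein response, were the others. The nearest fat peak was 0.373 kb from the Socs2 peak, 0.417 kb from that of Xbp1 and 0.879 kb from that of Cxcl12, and 12.9 kb from that of Rara. Of 22 nuclear receptors and cofactors 5 had a Liver-only peak (22.7%, 10.1 to 43.4) and 7 a shared one. Nr1h2 (6.22), the oxysterol receptor LXR beta, shared its Liver-only peak with its neighbour Pold1, a DNA polymerase subunit whose end lay nearer, at 29 bp against 830 bp. Thrb (4.83), a thyroid hormone receptor, and Ncor1 (4.47), a corepressor, were further members' genes, and Tef (4.91) was the 1 of 18 circadian genes.

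Among the housekeeping lists each had 1 to 3 genes with a Liver-only peak. Taf12 (5.88) and Polr2c (5.16) belong to the RNA polymerase II machinery, Sars (5.53) and Rars (3.53) are tRNA synthetase genes, and Psmb4 (4.83), Ube2d3 (4.75) and Psmd1 (4.62) are of the proteasome and ubiquitin list. For some housekeeping genes the Liver-only peak was an additional one: Ndufs1 had a shared peak of 17.9 beside a Liver-only peak of 3.33, and Sf3b2 one of 13.4 beside 3.31. The Psmb4 peak lay 0.0410 kb from a fat peak.

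Genes of other cell types had Liver-only peaks about as often as genes overall. The 6 lists of adipocyte, macrophage, endothelial, stellate, cholangiocyte and neuron genes held 88 genes, of which 7 had a Liver-only peak at an end (7.95%, 3.91 to 15.5), close to the 7.67% over all genes, and 2 had a shared one. Those with the larger enrichment were Snap25 (4.99), a synaptic gene, and Pnpla2 (4.83), the triglyceride lipase, and the lowest was Dcn (2.49), a matrix proteoglycan gene. Pnpla2 also had a shared Liver peak of 4.68, and its Liver-only peak lay 0.0600 kb from a fat peak, with a fat summit at the same gene end. None of 16 macrophage genes had one. The label Liver was checked with 9 defining hepatocyte genes: 7 had a Liver peak within 25 kb, among them Alb with 4 and Hnf4a with 5, whereas Ttr and Apob had none. Of these 9, Apoa1 and Ahsg were members' genes. Markers of other cells also had Liver peaks within 25 kb: 4 of 5 endothelial, 4 of 5 stellate, 3 of 5 Kupffer and macrophage, 4 of 6 adipocyte and 1 of 4 cholangiocyte markers, so the check does not separate cell types. All 6 adipocyte markers had a vWAT estradiol peak within 25 kb. So had 4 of 9 hepatocyte, 3 of 5 endothelial, 3 of 5 stellate, 2 of 5 Kupffer and macrophage and 3 of 4 cholangiocyte markers. Peaks near a gene do not measure its expression, so these counts describe the list and not the cells in the sample.

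The sequence of promoters was not used by the rule and could be compared. RefSeq promoter windows were at hand for 17274 protein-coding genes (79.9%), with none from 1 chromosome. A member summit lay in 429 of 21045 windows, a shared Liver summit in 2525, and no Liver summit in 17790. The remaining 301, which held only Liver summits over 1 kb from any gene end, were left out of the comparison. The 3 sets differed in the share of windows rich in CpG, though the median intervals with a Liver-only and a shared summit overlapped. The ratio of observed to expected CpG had a median of 0.789 (0.751 to 0.814) with a Liver-only summit, 0.819 (0.812 to 0.828) with a shared one and 0.473 (0.463 to 0.484) with none. It was at least 0.6 in 76.0% of windows with a Liver-only summit, 87.8% with a shared one and 41.3% with none. Windows with a Liver-only summit were thus less often CpG-rich than those with a shared one, by -11.8 points (-16.2 to -7.74), and more often than those with none, by 34.6 points (30.3 to 38.5). Windows of 1 gene with several starts overlap and are not independent. Members were also weaker than shared gene-end peaks, and the sets of windows were not matched for peak strength.

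Within the members, 94 lay in a CpG-poor window (below 0.6 in each window that held the summit) and 294 in a CpG-rich one. The median enrichment was 4.04 (3.85 to 4.22) in CpG-poor and 4.42 (4.23 to 4.52) in CpG-rich windows, and 53.2% against 68.0% reached a −log10 q-value of 2. Of the 100 strongest members 5 had a CpG-poor window and 31 a CpG-rich one. Promoters of the liver and metabolic lists were CpG-poor in 66.4% of 107 genes, against 8.90% of 191 housekeeping genes. A gene's list and its CpG content thus went together in part, and their separate parts were not tested.

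Motif letters were searched on both strands, and a match is a description of the sequence. Of all 21045 windows, 0.0523% held the full estrogen response element, searched as GGTCANNNTGACC, to which a pair of receptor molecules binds. Its single arm, AGGTCA, which many nuclear receptors recognise, was in 14.6%, and an arm also lies within any full element preceded by A. The GC box bound by Sp factors, GGGCGG, was in 46.7%. The CCAAT box, searched as the letters of its name, binds NF-Y and was in 38.5%. The ETS site, searched as CCGGAAG, was in 11.7%. The site of NRF1, a regulator of mitochondrial genes, was searched as GCGCNTGCGC and was in 6.44%. The cyclic AMP element bound by CREB, TGACGTCA, was in 2.26%. The E-box of clock and Myc proteins, CACGTG, was in 7.91%. The TATA box, which places the start of transcription, was searched as TATAAA and was in 12.7%. The site of the liver factors of the FOXA family was searched as TGTTTAC and was in 3.03%. The site of the C/EBP family, which includes Cebpa, was searched as TTGCNNAA and was in 10.3%. The YY1 site that covers many translation starts, AAGATGG, was in 6.28%.

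No window with a Liver-only summit held a full estrogen response element (0 of 429, an interval of up to 0.887%), none with a shared summit did (0 of 2525), and 11 of 17790 with no Liver summit did. The exact 13-letter form is rare in all sets, and looser forms were not searched. The AGGTCA arm was found in 10.0% of windows with a Liver-only summit, in 10.0% with a shared one and in 15.4% with none, and the difference between the first and the last was -5.40 points (-7.95 to -2.15). GC boxes went the other way. Of windows with a Liver-only summit 72.7% held one, against 62.4% with a shared summit, a difference of 10.4 points (5.57 to 14.8). With no Liver summit the share was 43.7%, and the difference between Liver-only and none was 29.1 points (24.6 to 33.1). The sets also differed in base composition. The median share of G and C bases was 63.0% with a Liver-only summit, 59.7% with a shared one and 55.7% with none. Whether the motif shares differ beyond base composition and peak strength was not tested.

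CCAAT boxes and ETS sites were less frequent with a Liver-only than with a shared summit. A CCAAT box was held by 36.8% with a Liver-only summit, 49.1% with a shared one and 37.0% with none, and the difference between Liver-only and shared was -12.2 points (-17.1 to -7.19). An ETS site was held by 21.2%, 31.9% and 8.37% in that order of sets, with a difference between Liver-only and shared of -10.7 points (-14.7 to -6.18). NRF1 sites were held by 14.0% with a Liver-only and 13.6% with a shared summit, an interval of -2.91 to 4.19 points for the difference, against 5.13% with none. For FOXA and C/EBP sites, which bind factors of hepatocytes, the differences between Liver-only and shared were 0.377 points (-1.06 to 2.54) and -1.53 points (-3.92 to 1.51), so neither direction was resolved. A TATA box was held by 8.39% with a Liver-only and 5.86% with a shared summit, a difference of 2.53 points (0.0569 to 5.66), and by 13.9% with none. These intervals were not adjusted for the 12 motifs compared, for base composition or for peak strength.

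**Figure D4:**
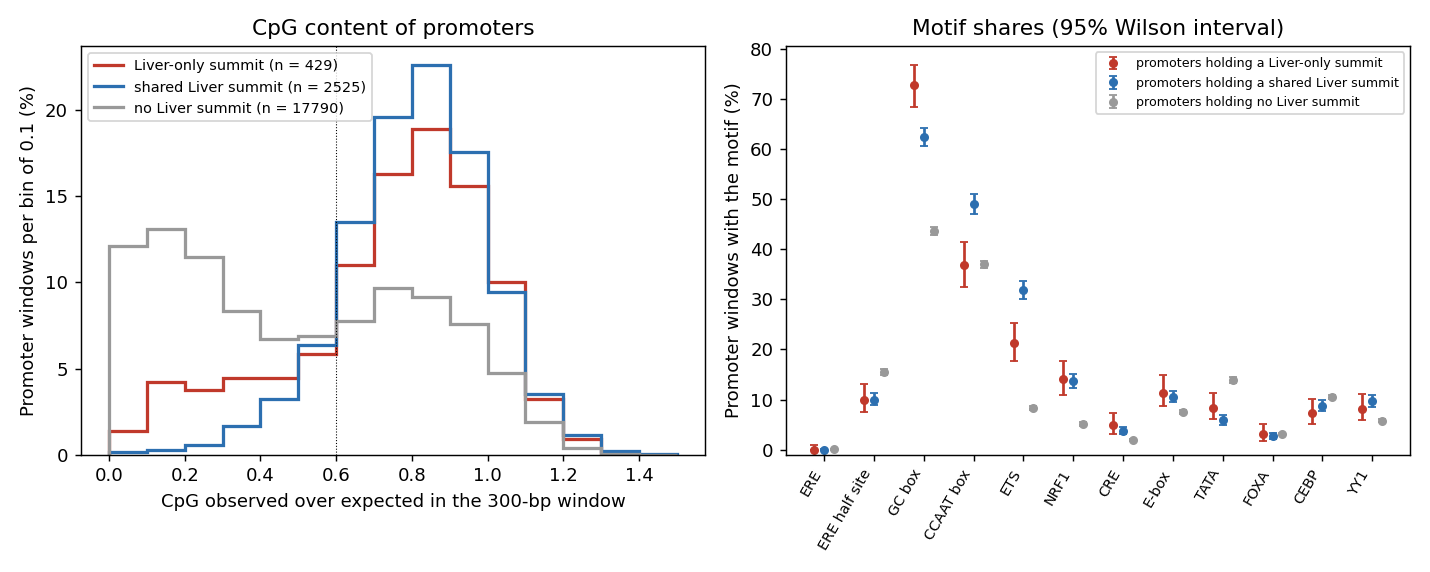
Left, the ratio of observed to expected CpG in 300-bp promoter windows, as the share of windows per bin of 0.1 (%), for windows with a Liver-only summit (red), a shared Liver summit (blue) and no Liver summit (grey), with the limit of 0.6 dotted. Right, the share of windows (%) with each of 12 motifs and its 95% Wilson interval: GC boxes stand at 72.7%, 62.4% and 43.7% in the 3 sets, CCAAT boxes at 36.8%, 49.1% and 37.0%.

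Across chromosomes the members followed the gene-end peaks, with X apart. The Liver-only share of gene-end Liver peaks was 20.4% to 33.5% on the 19 autosomes and 46.8% (52 of 111, 37.8 to 56.1) on X, against 27.1% (25.9 to 28.3) on the autosomes together, a difference of 19.8 points (10.7 to 29.1). X was singled out after the values were seen. Strength moved with it: the median enrichment of members was 3.33 on X and 4.04 on the autosomes. Within bins of enrichment the share was 64.8% on X and 55.3% on autosomes below 4-fold, 56.5% and 33.9% from 4- to 5-fold, and 11.8% and 10.6% at 5-fold or more, from 54, 23 and 34 X peaks. Away from gene ends X was also higher, with 94.1% against 85.9%. Members on X included Il13ra1 (5.54), an interleukin receptor subunit, Pgrmc1 (5.34), a haem-binding membrane protein of sterol metabolism, Hdac6 (5.16), a cytoplasmic deacetylase, and F9 (3.39). Members per 100 protein-coding genes were 5.38 on X and 4.53 to 10.2 on the autosomes.

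**Figure D5:**
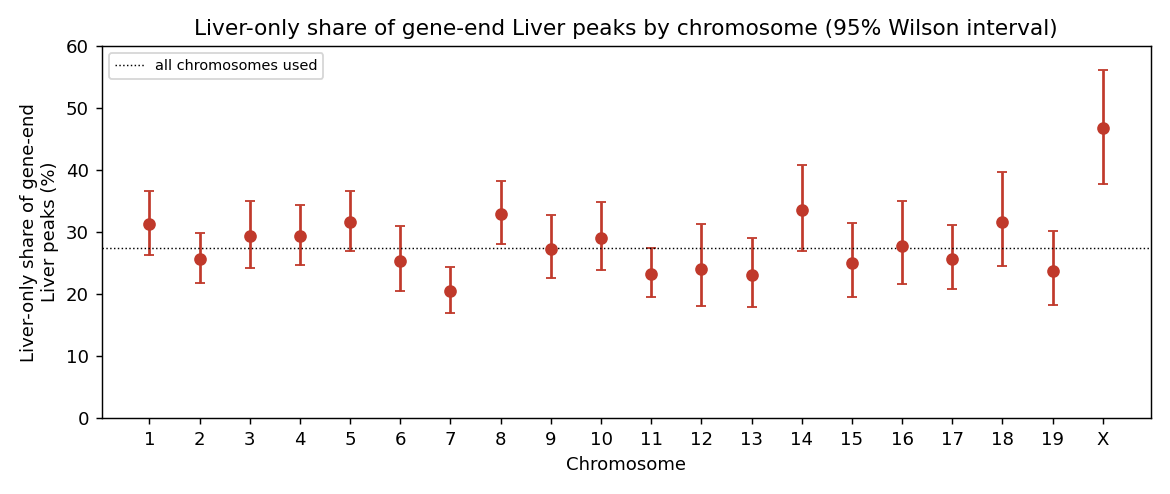
Share of gene-end Liver peaks found in no fat list (%) on each chromosome, with 95% Wilson intervals, and the share over all chromosomes used (dotted line, 27.5%). X stands at 46.8%, and the autosomes lie between 20.4% and 33.5%.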

How the data were processed

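Peaks came from 5 deposited lists without header, 1 per group of ERα ChIP-seq libraries, grouped by sample title. Per the submitters' processing notes the build was mm10 and the tools included HOMER and BWA 0.7.12, whose roles are not stated. How and on which libraries peaks were called is not given in the sources used here. For each peak the authors deposited a fold enrichment (ratio), a −log10 p-value, a −log10 q-value and a summit.

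Overlap meant at least 1 bp. Gene spans (GRCm38.p6) came from RefSeq, without exons. Strand was taken from RefSeq promoter windows, so it is known for 79.9% of protein-coding genes. Coordinates count from 1. Shares carry Wilson intervals, differences Newcombe intervals and medians order-statistic intervals at the 95% level, computed with Python 3.11.15, numpy 2.4.6, pandas 2.3.3 and scipy 1.17.1 and tested on simulated data. With 1 list per group there is no replicate error.

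Members and gene lists were chosen with earlier results of these data known. Named were the 25 members of largest enrichment, up to 4 genes per list by enrichment, and 3 peaks on each side of the 1 kb limit. A few of these genes are not reported here. Promoters to print were planned as at most 8 of the 25. Those printed are the first 4 of these and 4 CpG-poor promoters of list genes outside the 25. Further list genes, gene ends, CpG-poor promoters, families and X were picked after their values were seen. Alternatives were the overlap rule, q-value, window, gene set, summit position, list size and, for promoters, a summit within 1 kb of the start.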

Additional observations from a re-analysis of the deposited data

How the results depend on the processing

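No paired analysis was possible because each group has 1 peak list, and no library could be left out. The main values are 1480 peaks, 27.5% Liver-only among gene-end Liver peaks, 9.68% at gene ends among Liver-only peaks, a median enrichment of 4.04, 1659 genes and 80.6% nearer a start. Taking the middle of the peak in place of the summit left these 6 nearly unchanged, with 1481 peaks and 1658 genes. With fat peaks widened by 500 bp there were 1210 peaks and 1344 genes, and the 3 shares became 22.5%, 8.24% and 77.1%. With 50% of the Liver peak required to overlap there were 1882 peaks and 2122 genes. The shares were then 34.9%, 11.7% and 84.2%, and the median 4.15. With sharing defined by a fat summit within 100 bp there were 2570 peaks and 2921 genes, shares of 47.7%, 14.9% and 87.5%, and a median of 4.28. Against the 3 estradiol fat lists alone there were 1643 peaks and 1848 genes, and shares of 30.5%, 10.6% and 82.5%. At a −log10 q-value of at least 2 there were 740 peaks and 860 genes, shares of 18.3%, 14.2% and 87.4%, and a median of 4.74. At 5 or more there were 93 peaks and 109 genes, shares of 4.88%, 19.1% and 94.2%, and a median of 6.44. A window of 500 bp gave 1108 peaks and 1242 genes, shares of 23.6%, 7.25% and 87.2%, and a median of 4.14. One of 2 kb gave 2030 peaks and 2284 genes, and shares of 32.7%, 13.3% and 74.4%. With all annotated genes there were 2154 peaks and 2517 genes, and shares of 33.7%, 14.1% and 76.8%. With every list held to its 5193 best peaks by p-value, the size of the BAT list, there were 705 peaks and 836 genes, shares of 25.3%, 27.9% and 95.7%, and a median of 5.55. Leaving out members with a fat summit at the same gene end, an alternative chosen after seeing the data, gave 1178 peaks and 1311 genes. The 3 shares were then 21.9%, 7.86% and 76.7%. Where no median is given here, it was between 3.98 and 4.06. Over the 1071 promoter windows with a Liver-only summit within 1 kb of the start, 2 of 14 promoter values moved, ETS sites to 17.3% (21.2% in the report) and YY1 sites to 5.51% (8.16%). The causes of these shifts were not tested. Of the 27 list counts 15 stayed within 1.5 times at a −log10 q-value of at least 2 and 14 at 2 kb. Read depth is unknown, so detection limits could not be compared between the lists.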

Other observations

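Several Liver-only peaks at CpG-poor promoters lay at genes of liver metabolism that stand in none of the lists. They were picked after their values were seen, so they describe single promoters and no group. Gckr, which encodes the regulator that holds glucokinase in the hepatocyte nucleus, had an enrichment of 5.96 on chromosome 5 at 31297196 to 31297577, with a CpG ratio of 0.364. Mup21, a major urinary protein gene, had 5.42 with a CpG ratio of 0.155, and Hsd17b13, a lipid droplet enzyme gene of liver, 5.31 with 0.182. Amt (5.28) belongs to glycine cleavage, C8a (5.21) to the terminal complement pathway, Agxt2 (4.84) to aminotransferases and Aadat (4.84) to tryptophan breakdown. Agt (4.38), which encodes angiotensinogen and is a known estrogen-responsive liver gene, had a CpG ratio of 0.0446, and Hao1 (4.23) is a liver oxidase gene. None of these 9 had a fat summit within 1 kb of the same gene end. The same held for 79.6% of all members, so it does not set these genes apart.

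Gene families by symbol, also chosen after their values were seen, lay on both sides of the 7.67% of all protein-coding genes. Of 99 Cyp genes 10 had a Liver-only peak at an end (10.1%, 5.58 to 17.6) and 4 had a shared one, led by Cyp4f17 (5.05), Cyp2d40 (4.92), Cyp2j8 (4.84) and Cyp3a59 (4.83). Of 60 Serpin genes 7 had one (11.7%, 5.77 to 22.2), among them Serpina6 (3.75), which encodes the corticosteroid carrier of plasma, and Serping1 (3.32), the inhibitor of complement component 1. Of 389 genes with an Slc symbol, most of them transporters, 30 had one (7.71%), led by Slc22a7 (7.20) and Slc26a6 (6.16), and Slc51b (5.05) encodes a subunit of the bile acid exporter. Of 397 Zfp genes 34 had one (8.56%) and 168 had a shared one (42.3%). Of 1110 Olfr odorant receptor genes 6 had a Liver-only peak (0.541%) and none a shared one. Also below 7.67% were genes with the symbols Ugt (1 of 22, 4.55%), Rps (6.67%), Rpl (1.89%), Ndufa (4.35%) and Psm (3.92%). The intervals of all these families except Olfr include 7.67%. Many Cyp, Serpin and Olfr genes have close copies nearby, where short reads can be placed ambiguously, and this was not tested.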
